A study of Homo sapiens with 4 samples.

Results

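HNRNPC peaks whose centre lay in a coding exon or in a 5′ untranslated (5′ UTR) exon are described here. They were picked from the deposited HNRNPC list, with each position counted once, by the place of the peak centre on its own strand. The centre had to fall in coding sequence (CDS) or in 5′ UTR of any GENCODE 44 transcript and in no 3′ UTR. This gave 286 of 9107 peaks, 155 in CDS and 131 in 5′ UTR, in 255 genes. The remaining peaks comprised 7782 in introns, 519 in 3′ UTRs, 494 in non-coding exons and 26 antisense to genes or between them.

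The samples were MDA-MB-231 cells, an established triple-negative breast cancer line, for which the labels name no treatment other than cross-linking of protein to RNA with ultraviolet light (254 nm, 400 mJ/cm2). HNRNPC was precipitated with its antibody in 2 samples, and PABPC4, a mainly cytoplasmic poly(A)-binding protein, in 2 others by PAPERCLIP, a related method. The samples of each protein were pooled before peaks were called, which leaves the values without any replicate error, and intervals and exact tests over peaks cover counting error only. The labels and methods named irCLIP for HNRNPC, while the deposited list carries the name of HITS-CLIP, a related protocol, and no input or mock precipitation was used here. As a check of the line, VIM had 3 PABPC4 peaks (the tallest 10197 tags high), CD44 had 18 (331 tags) and FOSL1 had 8 (1515 tags). PGR had 0 and ESR1 had 2 of at most 7 tags, while CDH1, taken as a marker that the line lacks, had 3 of at most 56 tags.

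HNRNPC is an abundant nuclear protein that packages nascent transcripts and binds runs of uridine. An Alu repeat that lies antisense within a gene is transcribed with long U runs, and these resemble the polypyrimidine tract of a 3′ splice site. HNRNPC is known for keeping the splicing factor U2AF65 off such tracts, so that Alu sequences in introns are not spliced in as new exons. Annotated exons that consist of antisense Alu are therefore places where its binding is of interest.

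A first set of sequences shows the U runs beside peaks in Alu-derived exons, which are exons with at least 50% of their bases in an antisense Alu match. Each line gives 30 nt of hg38 in the direction of the transcript, with the U run in capitals. They are the tallest such peaks with a run of 5 or more U, apart from CTSB, RACK1 and ITGB1, whose sequences are not shown, and their exons are 5′ UTR for the first 4 genes and coding for the last 3.
TRAF2 (chr9:136889616-136889645, plus strand): uuuaacUUUUUUguuauuuuauuuuuauac
SYMPK (chr19:45862026-45862055, minus strand): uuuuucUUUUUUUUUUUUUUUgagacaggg
SAE1 (chr19:47135510-47135539, plus strand): auucccUUUUUUUUguagacagggucucuc
GOLGA3 (chr12:132827898-132827927, minus strand): cauggaUUUUUUUUUUUUUUUUaagagacu
SEC63 (chr6:107956100-107956129, minus strand): uuguucUUUUUUUcuuuuuaaagcggggag
SRSF3 (chr6:36598390-36598419, plus strand): auuuuaUUUUUcaagacagagucuugcucu
RBM39 (chr20:35713847-35713876, minus strand): uucuuaUUUUUUgaugcagggucuggcucu

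A second set shows the hexamer GUGUCA, which lay at the 3′ end of most coding peaks. The hexamer is in capitals in the middle of 30 nt. SLC1A5, TACC3 and RNF126 carried the tallest coding peaks with it, and HDHD2, BRF1 and CDK16 the tallest 5′ UTR peaks.
SLC1A5 (chr19:46784520-46784549, minus strand): ccuuccaaccugGUGUCAgcagccuuucgc
TACC3 (chr4:1738408-1738437, plus strand): accuccuucccuGUGUCAgagcccguguga
RNF126 (chr19:652184-652213, minus strand): ugcuucccgaucGUGUCAgccuugcucggg
HDHD2 (chr18:47150104-47150133, minus strand): cgugaagcuaguGUGUCAgucauuccucga
BRF1 (chr14:105241816-105241845, minus strand): ucucacccaugaGUGUCAgcugaugccggc
CDK16 (chrX:47222242-47222271, plus strand): agcaucuacucuGUGUCAgucacuauucca

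A further set shows coding peaks in which the hexamer began at base 5 of the intron, next to the 5′ splice site. The capitals are again the hexamer, and the 4 bases before it are the first of the intron.
WDFY3 (chr4:84678146-84678175, minus strand): aucuccaaguaaGUGUCAggcuuuuuccag
CSF3 (chr17:40016333-40016362, plus strand): ugcagcuggugaGUGUCAggaaaggauaag
EP400 (chr12:132064879-132064908, plus strand): cccggcucguaaGUGUCAguuucuguuugu
UBAC1 (chr9:135947776-135947805, minus strand): ugagagacgugaGUGUCAgcccagagcggc

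The first question was which exons held the peaks. Each gene was given 1 reference transcript, the MANE Select transcript or otherwise the Ensembl canonical one. Of the 155 coding peaks, 122 (78.7%, 95% Wilson interval of 71.6 to 84.4%) had their centre in coding sequence of that transcript, and the other 33 lay in its introns. Of the 131 5′ UTR peaks only 26 (19.8%, 13.9 to 27.5%) were in its 5′ UTR, while 100 were in its introns and 5 outside it. The difference of 58.9 percentage points passed a two-sided Fisher's exact test (Benjamini-Hochberg adjusted p = 5.18e-23 over 18 such tests). Peaks of 1 gene are not independent, but the difference had the same direction and passed with 1 peak per gene. Members could come from any transcript, and the reference share of all annotated coding and 5′ UTR bases was not counted. The difference between the classes is therefore not told apart from one in the annotation itself.

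**Figure D1:**
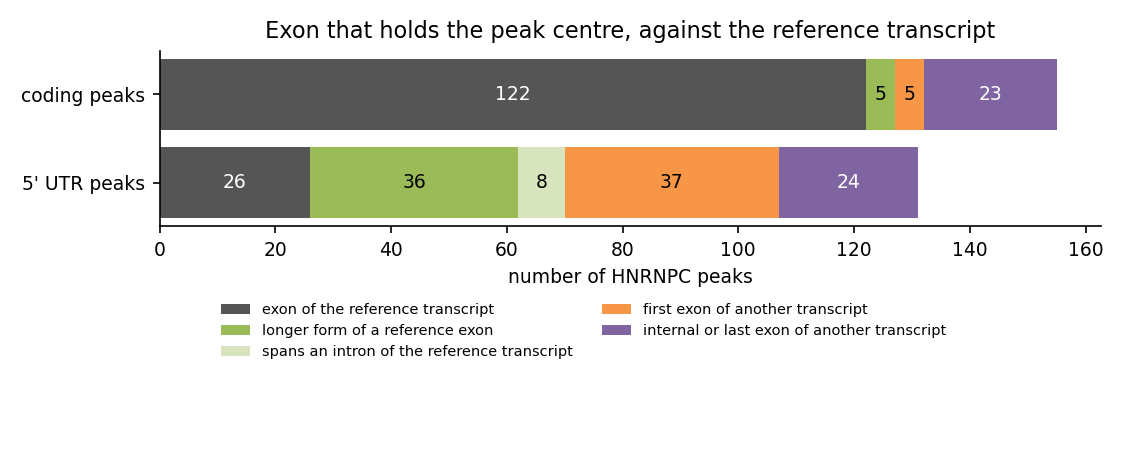
Number of HNRNPC peaks by the kind of annotated exon that held the peak centre, compared with the reference transcript of the gene. Of the coding peaks 122 of 155 lay in a reference exon, against 26 of 131 of the 5′ UTR peaks, most of which lay in longer forms of a reference exon or in exons of other transcripts.

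Among the 105 5′ UTR peaks outside the reference exons, 37 lay in a first exon that only other transcripts use, and 36 in a longer form of a reference exon. A further 24 were in an internal or last exon of another transcript, and 8 in an exon that spans a whole reference intron. Of the 100 in reference introns, 70 were in the first intron. Over all 100 the centre was at a median of 2178 nt after the 5′ splice site of the intron that held it, and 22 were within 500 nt of that site. By the transcripts that named them, 103 of the 131 were in first exons, or 78.6%, beside 80.7% of all 5′ UTR bases in these transcripts. Their exons were long, with a median of 530 nt, and the peak centres were at a median of 359 nt along the genome from the transcript start.

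Of the 33 coding peaks in reference introns, 23 were in internal or last exons of other transcripts, 5 in other first exons and 5 in longer forms of a reference exon. Of all 155 coding peaks, 106 were in internal exons and 30 in last exons. The last exons held 19.4% of coding peaks and 11.1% of the coding bases of these transcripts, and first exons held 11.6% and 4.59%, in the same order. These shares of bases were counted over every base without sampling and are given as a description. The exon that held a coding peak had a median rank of 5 and a median length of 230 nt.

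Closeness to splice sites differed between the classes. Of the coding peaks, 63 (40.6%, 33.2 to 48.5%) had their centre within 50 nt of an exon boundary at an intron, against 26 of the 5′ UTR peaks (19.8%), a difference of 20.8 points (two-sided Fisher's exact test, adjusted p = 0.000478). The exons themselves differed in this, with 46.7% of the coding bases and 13.4% of the 5′ UTR bases of these transcripts that close, so coding peaks were below and 5′ UTR peaks above their share of bases. Restricted to peaks of at least 11 tags, the median of the list, it was 15.5 points and no longer passed the exact test (adjusted p = 0.115). In the coding reference exons, 35.2% of the 122 centres were that close, beside 46.6% of all coding bases of the same transcripts. Donor (5′ splice site) and acceptor (3′ splice site) sides were unlike there. Within 50 nt of a donor lay 33 centres (27.0%, beside 24.6% of bases), and within 50 nt of an acceptor 14 (11.5%, beside 24.9%). The 33 coding peaks outside reference exons had higher shares near both. There 12 centres (36.4%, beside 27.0% of bases) were within 50 nt of an acceptor and 13 (39.4%, beside 26.6%) of a donor. These are small counts and were not tested against the shares of bases.

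Many peaks reached into introns of the transcript that named them. Whether those bases are exonic in other transcripts of the gene was not checked, so they need not come from unspliced RNA. Of the 286 peaks, 91 covered an exon boundary at an intron of that transcript (31.8%). Of these, 72 covered a donor and 38 an acceptor, with 19 covering both. Peaks that ran past the start or end of the transcript are not in this count. Wholly inside the exon lay 180 of the 286 (62.9%), and 31 had their centre within 100 nt of the transcript start. Even in coding reference exons, 41 of 122 peaks did so, 33 at the donor and 11 at the acceptor, and the exon held a median of 76.8% of the bases of those 41. A peak that ends inside the exon does not tell spliced from unspliced RNA, since the files hold no tags.

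Alu sequence was found only among the peaks outside reference exons. An antisense Alu match overlapped 14 of 155 coding peaks (9.03%, 5.46 to 14.6%) and 32 of 131 5′ UTR peaks (24.4%, 17.9 to 32.4%), a difference of -15.4 points (two-sided Fisher's exact test, adjusted p = 0.00132). Over the whole list the share was 34.3%. Without the peaks with GUGUCA the difference between the classes was -8.61 points and no longer passed the exact test (adjusted p = 0.304). All 46 lay outside the reference exons, where they were 33.3% of 138 peaks (26.0 to 41.6%). There the order of the classes was the reverse. The match was at 14 of 33 coding peaks (42.4%, 27.2 to 59.2%) and 32 of 105 5′ UTR peaks (30.5%, 22.5 to 39.8%). The tested difference was thus between classes with unlike shares in reference exons, and the split by reference exon was not tested. In the 148 peaks of reference exons there were 0, which allows a share of up to 2.03% by the limit used for all counts of 0, namely 3 counts of the total, and up to 2.53% by the Wilson interval. A sense Alu overlapped 0 of the 286, which allows up to 1.05%.

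Compared with the 36.2% of intron peaks, the 16.1% of exon peaks with an antisense Alu (12.3 to 20.8%) differed by -20.1 points (two-sided Fisher's exact test, adjusted p = 1.77e-12). By the same exact test it was also below the 26.7% of non-coding exon peaks (adjusted p = 0.00147) and the 24.3% of 3′ UTR peaks (adjusted p = 0.0114). Restricted to 11 or more tags, the differences from non-coding exons, -4.19 points, and from 3′ UTRs, -3.26 points, no longer passed the exact test (adjusted p = 0.484 and 0.57).

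Runs of 5 or more U were also less common in coding than in 5′ UTR peaks. They were searched on the RNA strand from 50 nt upstream of the peak to 8 nt after its 5′ end. They were present at 18 of 155 coding peaks (11.6%, 7.47 to 17.6%) and 44 of 131 5′ UTR peaks (33.6%, 26.1 to 42.0%), with 34% in the whole list. The difference of -22.0 points passed (two-sided Fisher's exact test, adjusted p = 3.37e-05), but not without the peaks with GUGUCA, at -13.7 points (adjusted p = 0.0811). If a peak began at every base of the same transcripts in turn, 5.49% of coding and 16.8% of 5′ UTR bases would have such a run. In reference exons the run stood at 6 of 122 coding peaks (4.92%, 2.27 to 10.3%) and 9 of 26 5′ UTR peaks (34.6%). Outside them it stood at 12 of 33 (36.4%) and 35 of 105 (33.3%). The gap between the classes was thus seen in reference exons and not outside them, unlike the Alu matches. This split was not tested. Exon peaks as a whole, at 21.7% (17.3 to 26.8%), had it less often than intron peaks at 35.1% by the exact test (adjusted p = 7.99e-06). The lower share against 3′ UTR peaks at 30.4% (adjusted p = 0.0116) and non-coding exon peaks at 28.9% (adjusted p = 0.0363) did not pass the exact test with 1 peak per gene (adjusted p = 0.123 and 0.341).

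The U run and the Alu went together. Of the 46 peaks with an antisense Alu, 36 had a U run (78.3%, 64.4 to 87.7%), and of the other 240, 26 had one (10.8%). Over the 62 peaks that had one, the run began at a median of -27.5 nt from the first base of the peak, where negative values lie upstream. Inside the peak itself 23 of 286 (8.04%) had 5 U in a row, beside 13.3% in the whole list. Peak sequence was rich in G and C, with a median of 60.6% in coding peaks, 60.95% in 5′ UTR peaks and 54.9% in intron peaks. Over all bases of the transcripts that named the peaks, G and C made up 56.0% of coding and 52.4% of 5′ UTR sequence.

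**Figure D2:**
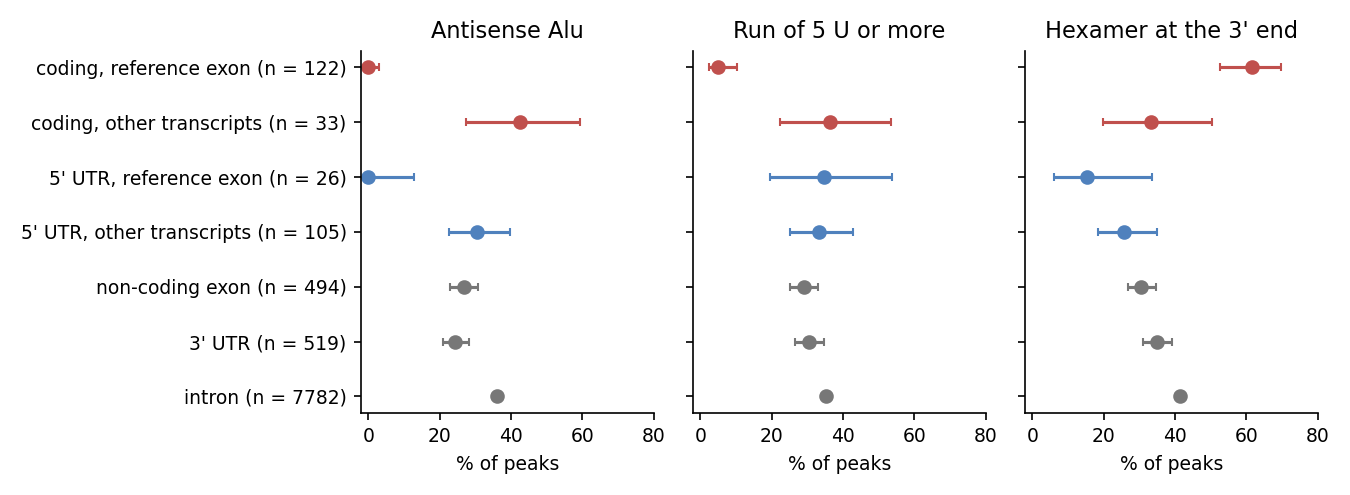
Percent of HNRNPC peaks with an antisense Alu match, with a run of 5 or more U near the 5′ end and with the hexamer GUGUCA at the 3′ end, by the place of the peak; points are shares and bars are 95% Wilson intervals. Coding peaks of reference exons stood at 0%, 4.92% and 61.5%, while exons of other transcripts held antisense Alu at 42.4% (coding) and 30.5% (5′ UTR).

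In 26 of the 46, at least 50% of the exon itself was antisense Alu, 12 of them coding and 14 in the 5′ UTR, each in a different gene. All 26 exons lay in an intron of the reference transcript, and 23 were internal exons. For comparison, 140 of the 8559 distinct exons with CDS or 5′ UTR that GENCODE lists for the members' genes were of this kind (1.64%, 1.39 to 1.93%). Only 1 of them was among the 4063 reference exons, and 139 were among the 4496 exons of other transcripts. The exons under the 26 peaks were 33 to 773 nt long, with a median of 121.5 nt, and 15 were listed in a single transcript. Of the 12 coding ones, 6 belonged to transcripts annotated for nonsense-mediated decay, which destroys mRNAs with early stop codons. Such transcripts named 10 of all 155 coding peaks (6.45%) and 9 of the 33 outside reference exons (27.3%), which include the 12. A length that is a multiple of 3 was found in 7 of the 12, among them the last exon of RACK1 and an exon of a decay transcript of RBM39. The share of such lengths over other exons was not counted.

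The layout of these exons was similar from gene to gene. A U run stood near the 5′ end of 23 of the 26 peaks. Of the 24 exons that were not first exons, 21 had a run, which began before the acceptor in 19 and no more than 60 nt before it in 18. In these 24 the peak began at a median of -1.5 nt from the first exon base, and its centre was at a median of 57 nt into the exon. It ran past the exon's 3′ end in 15 of the 24. These peaks were of ordinary height, from 3 to 77 tags with a median of 11, as in the list as a whole.

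**Figure D3:**
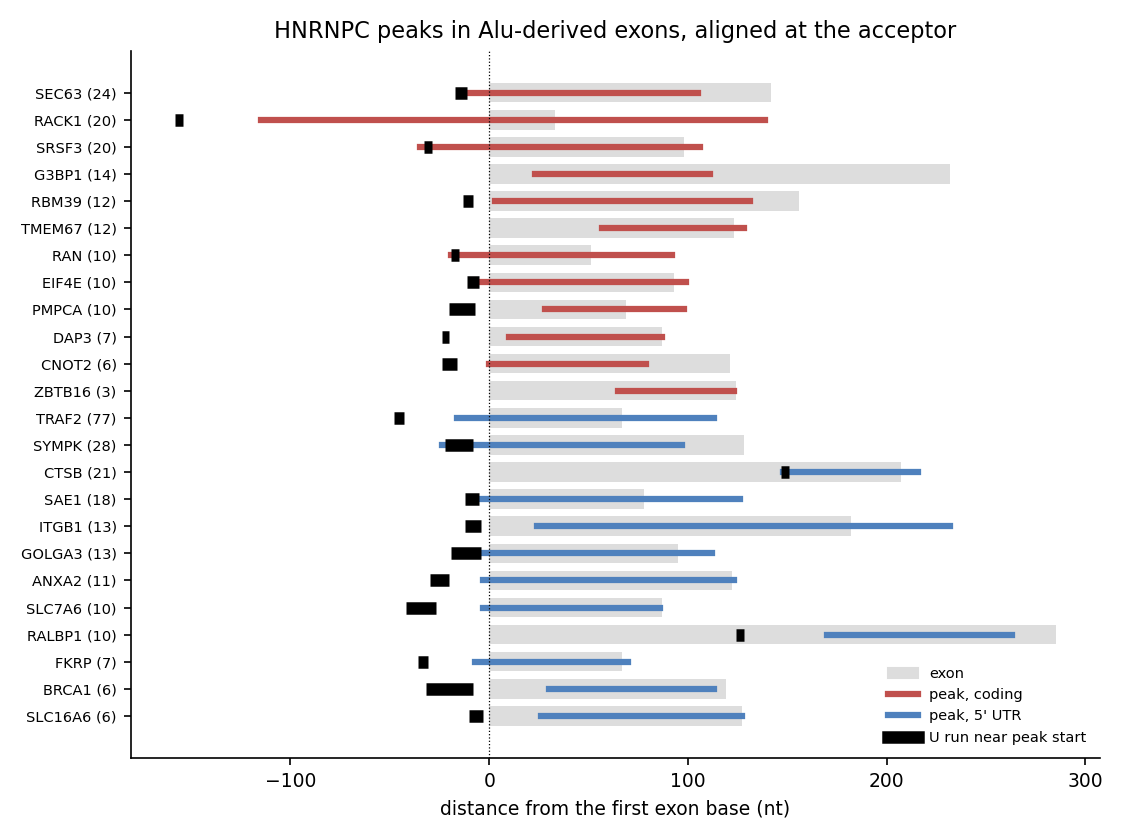
The 24 HNRNPC peaks in Alu-derived exons that were not first exons, aligned at the first exon base (0 nt, dotted line); grey bars are the exons, coloured lines the peaks, black blocks the U run near the peak start, and peak heights in tags are in brackets. In 19 of the 24 the U run began before the acceptor, and the peaks covered much of the exon.

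The tallest of the 5′ UTR ones was in TRAF2, an adaptor of tumour necrosis factor receptors, with 77 tags at chr9:136889654-136889783. Its exon of 67 nt, exon 2 of 6, was wholly Alu, and the U run began 48 nt before it. SYMPK encodes symplekin, a scaffold of the mRNA 3′-end processing machinery, and its peak of 28 tags began 24 nt before an Alu exon of 128 nt, with a run of 15 U that began 22 nt before the exon. The protease gene CTSB followed with 21 tags, where the U run of 5 lay inside the exon, 147 nt after the acceptor. SAE1, a subunit of the SUMO-activating enzyme, had 18 tags and a run of 8 U starting 12 nt before an exon of 78 nt. ITGB1, the integrin beta-1 chain, had 13 tags in an exon of 182 nt behind a run of 9 U.

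Among coding ones SEC63, which serves protein import into the endoplasmic reticulum, had the tallest peak, 24 tags at chr6:107956001-107956120, in an exon of a decay transcript that was 55.6% Alu. RACK1, a ribosomal scaffold protein, had 20 tags over a peak that reached 115 nt upstream of an exon of only 33 nt. SRSF3, an SR protein that regulates splicing, including that of its own mRNA, also had 20 tags, in exon 3 of a decay transcript of 5 exons. G3BP1, a core protein of stress granules, had 14 tags in an exon of 232 nt and no U run near the peak start. TMEM67, a protein of the ciliary transition zone, had 12 tags and no such run. In PDLIM5, the PDZ and LIM domain gene that the study followed, the peak of 8 tags at chr4:94456239-94456330 was coding only in the last exon of a transcript of 3 exons. Its centre was 41 nt after the acceptor of that exon and lay in intron 2 of the reference transcript, 901 nt after the donor. It had an antisense Alu match and a run of 8 U.

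GUGUCA at the 3′ end was the commonest of the 3 features in coding peaks. It lay within 20 nt of the end of 86 of 155 (55.5%, 47.6 to 63.1%) and of 31 of 131 5′ UTR peaks (23.7%, 17.2 to 31.6%). The difference of 31.8 points passed (two-sided Fisher's exact test, adjusted p = 2.73e-07). In the whole list the share was 40.3%. If a peak ended at every base of the same transcripts in turn, 1.62% of coding and 2.19% of 5′ UTR bases would have the hexamer that close. Read on the other strand it is UGACAC, and 0 of the 286 peaks had that hexamer there, which allows up to 1.05%. In reference exons the hexamer was at 75 of 122 coding peaks (61.5%, 52.6 to 69.6%) and 4 of 26 5′ UTR peaks (15.4%, 6.15 to 33.5%). Outside them the classes were closer, at 11 of 33 (33.3%, 19.75 to 50.4%) and 27 of 105 (25.7%, 18.3 to 34.8%). This split was not tested.

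Of all exon peaks 40.9% (35.4 to 46.7%) had the hexamer, against 41.3% in introns, 34.9% in 3′ UTRs and 30.6% in non-coding exons. Only the last of these differences, 10.3 points, passed (two-sided Fisher's exact test, adjusted p = 0.00684), and it was 5.81 points and did not pass with 1 peak per gene (exact test, adjusted p = 0.206). With 1 peak per gene the difference from introns became -7.28 points and passed the exact test (adjusted p = 0.0443).

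The hexamer was tied to the peak end. In coding peaks its last base was at a median of 0 nt from the last base of the peak, with quartiles at -3 and 3.75 nt. The next base was G in 74 of 86 (86.0%), while 97 of the 176 GUGUCA in the coding sequences of these transcripts were followed by G (55.1%). The 86 include hexamers outside coding sequence. The 176 were counted without leaving out the peaks' own hexamers, so they are not a separate background. These shares, and the frames below, are set side by side only. All 3 reading frames occurred. Of the 58 that began in coding sequence, 31 began on the first base of a codon, 19 on the second and 8 on the third, beside 77, 68 and 31 of the 176.

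In 25 coding and 4 5′ UTR peaks the hexamer was not in the exon but in the intron after it, beginning 3 to 58 nt past the donor in the coding ones. It started at base 5 of the intron in 10 of the 25 and 2 of the 4, directly after the first bases of the 5′ splice site, as printed above for WDFY3, CSF3, EP400 and UBAC1. Of the 25, 21 followed exons of the reference transcript. Over the 2247 donors of the transcripts that named coding peaks, 66 hexamers began within 60 nt after the donor, and 13 of them began at base 5 (19.7%). The 66 include the 25 of the coding peaks and the 13 include their 10, so this is not a separate background. The linker and primer sequences of the libraries were not used here, so the hexamer was not compared with them and its origin was not tested. Its share in coding peaks is therefore a property of the listed peaks, and values without these peaks are given wherever a call changed.

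**Figure D4:**
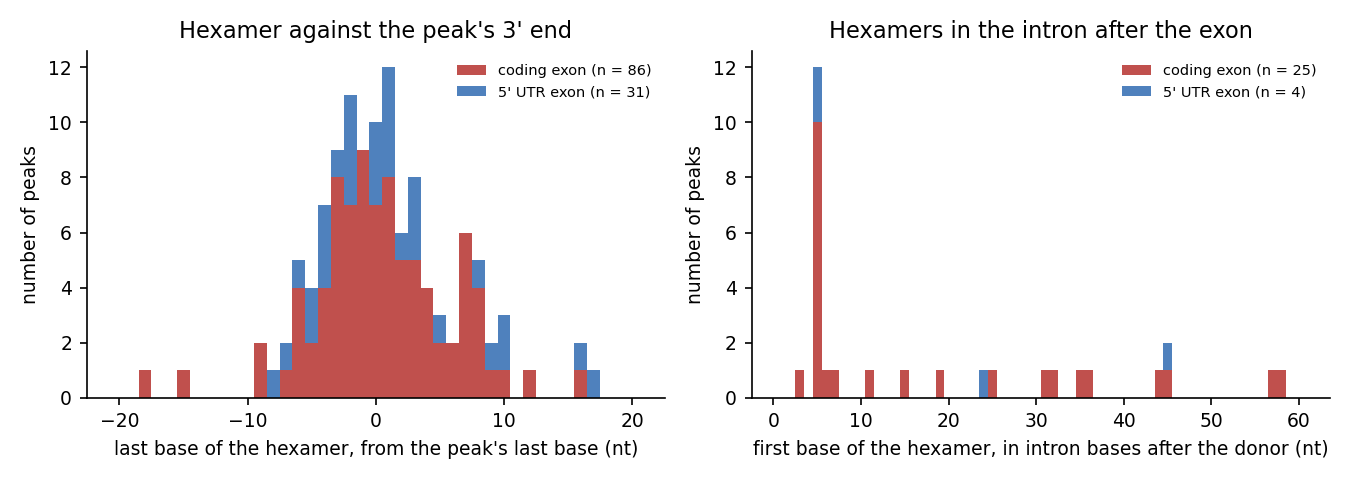
Left, distance of the last base of GUGUCA from the last base of the peak (nt) for 86 coding and 31 5′ UTR peaks; right, first intron base of the hexamer, counted from the donor, for the 25 coding and 4 5′ UTR peaks that had it in the intron. The left distances gather around 0 nt, and 12 of the 29 on the right begin at base 5.

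No feature searched was found at 113 of the 286 peaks (39.5%), that is neither an antisense Alu nor a U run nor GUGUCA. They made up 52 coding and 61 5′ UTR peaks. In the whole list such peaks were 26.8%.

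PABPC4 peaks almost never overlapped these exons' HNRNPC peaks, and the same held for HNRNPC peaks in introns. PABPC4 peaks did so on the same strand at 1 of 155 coding peaks, in DDX27, an RNA helicase of ribosome biogenesis. There the HNRNPC peak was 13 tags and the PABPC4 peak 61 tags high. At 5′ UTR peaks it was 0 of 131, which allows a share of up to 2.29%. The share in the whole list was 0.944%. The share of exon peaks, 1 of 286, was below the 6.55% of 3′ UTR peaks (two-sided Fisher's exact test, adjusted p = 1.83e-05) and the 3.04% of non-coding exon peaks (adjusted p = 0.0116). The latter did not pass the exact test when the list was cut at the authors' p of 0.001 (adjusted p = 0.0971) or at 11 tags (adjusted p = 0.188). The paper reports PABPC4 peaks enriched near poly(A) signals, which lie by mRNA 3′ ends, and the rule for exon peaks left out every 3′ UTR. A share below that of 3′ UTR peaks was thus largely set by the rule. Intron peaks overlapped at 0.437%, a difference of -0.0873 points (exact test, adjusted p = 1).

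Peak height, the largest number of overlapping unique tags, follows both binding and RNA abundance, and these cannot be told apart in these files. Coding and 5′ UTR peaks had the same median, 11 tags, as intron peaks, with quartiles of 9 and 17 tags and of 8 and 17 tags. At least 20 tags were reached by 34 coding (21.9%) and 19 5′ UTR peaks (14.5%), and at least 50 tags by 5 and 6. Only 5 of the 10 tallest coding peaks and 0 of the 10 tallest 5′ UTR peaks were in reference exons. A boundary of the exon was covered by 8 of the former and 3 of the latter.

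The tallest coding peak, 105 tags at chr5:142319676-142319832, was in SPRY4, an inhibitor of receptor tyrosine kinase signalling. Only 32.5% of it lay in the exon that named it, an internal exon of another transcript in a reference intron. EPHA2, an ephrin receptor tyrosine kinase, followed with 76 tags over 299 nt of reference exon 5 and past its donor, with neither a U run nor the hexamer. SLC1A5, the glutamine transporter, had 75 tags with the hexamer in the intron after an alternative first exon. FOXK2, a forkhead transcription factor, had 64 tags inside reference exon 7 of 9. SLC6A9, the glycine transporter GlyT1, had 60 tags in another first exon. ACTB, which encodes beta-actin, and TRIO both had 45 tags. TACC3, RNF126 and ZDHHC16 completed the 10 with 40, 38 and 37 tags, each with GUGUCA at the end, and WDFY3 had the same height as the last. Genes with near-identical copies, such as ACTB, EEF1A1, RACK1 and NBPF15, can share reads with them.

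The tallest 5′ UTR peak, also 105 tags, was in ZNF875, a KRAB zinc finger gene, at chr19:37325151-37325343. It covered exon 6 of 11 of a long transcript, an exon of 121 nt that the reference transcript does not reach. HDHD2, a hydrolase-like gene, had 79 tags at the hexamer in an alternative first exon. Only 51.1% of that peak lay in the exon, and its centre was 1 nt from the transcript start. After TRAF2 came NBPF15 with 56 tags, NUP62, a nucleoporin, with 51 tags, and BRF1, a subunit of the RNA polymerase III factor TFIIIB, with 51 tags. The NUP62 peak was listed under 2 gene IDs, IL4I1 among them. WDR74, which serves ribosome biogenesis, had 39 tags, the kinase CDK16 had 34, and SYMPK and TRIO had 28. TRIO thus had a 5′ UTR and a coding peak in the same alternative first exon, and the coding peak ran past its donor.

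**Figure D5:**
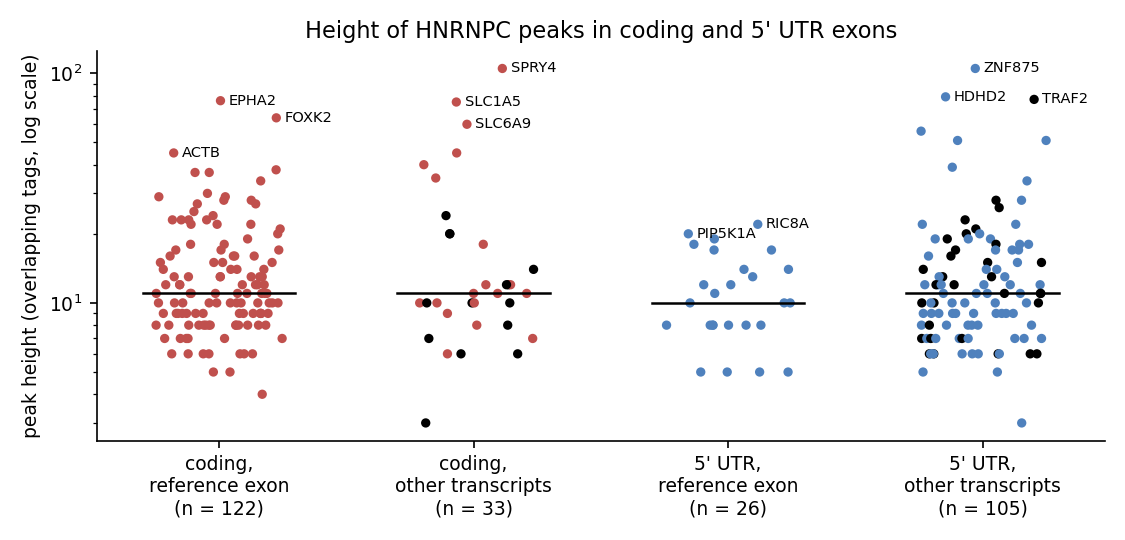
Height in tags (log scale) of each of the 286 HNRNPC peaks by class and by place in the reference transcript; bars are medians, black points are peaks with an antisense Alu, and the tallest peaks of each group are named. Medians were 10 to 11 tags in the 4 groups, and 5′ UTR peaks of reference exons reached only 22 tags.

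Peaks were spread thinly over genes, with 28 of 255 genes holding 2 or more. RUNX1, a transcription factor of blood cell development, C6orf62 and RANGAP1, which activates the Ran GTPase at nuclear pores, held 3 each, all in the 5′ UTR. The RUNX1 peaks of 11, 10 and 5 tags lay in a first exon of 1848 nt, a longer form of a reference exon, in the stretch that is intron 3 of the reference transcript, and they were listed under 6 to 8 gene IDs. RANGAP1 had peaks of 18, 15 and 12 tags in the first reference intron. Of C6orf62's peaks one of 17 tags was in the reference 5′ UTR behind a run of 17 U, while those of 9 tags each were upstream of the reference start. Another HNRNPC peak of any other class lay in the span of 143 of the 255 genes (56.1%).

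Gene groups were formed by symbol, and their counts were not set against the size of each family. Zinc fingers had 12 peaks in 11 genes, 7 coding and 5 in the 5′ UTR. Of the 12, 8 were in reference exons, 2 had the hexamer and 0 had an antisense Alu. Over all exon peaks these shares were 51.7%, 40.9% and 16.1%. Besides ZNF875 the tallest were ZNF621 and ZNF827 with 13 tags each. Solute carriers had 10 peaks in 10 genes. In a reference exon lay 1 of the 10, beside 51.7% of all exon peaks, and 7 had the hexamer, SLC1A5 among them, beside 40.9%. HNRNPC itself had a 5′ UTR peak of 14 tags with an antisense Alu, in a longer first exon within a reference intron, and HNRNPH1 a coding peak of 18 tags. SRSF3 was the only gene with an SR protein name, and DDX27 the only one named as a DDX or DHX RNA helicase. Histone methylation enzymes numbered 3, namely KMT2D, KMT5B and KDM5C with 11, 12 and 7 tags, KMT2D and KDM5C with the hexamer. Names starting as ribosomal proteins numbered 3, of which RPLP1 (13 tags) and RPL6 (6 tags) are ribosomal and RPS6KA1 is a kinase. KIFC3 was the only kinesin, with 19 tags, and ubiquitin-specific proteases had 0. These groups were not tested.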

How the data were processed

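Peaks of HNRNPC and PABPC4 were mapped by cross-linking and immunoprecipitation in MDA-MB-231 cells, 2 samples a protein. Per the labels and methods, the authors collapsed HNRNPC reads by their molecular identifiers, extracted these with UMI-tools, trimmed reads with cutadapt, aligned them to hg38 with BWA 0.7.17 and called peaks on pooled samples with the CLIP Tool Kit. The methods also form a union with a published HNRNPC list, and whether the deposited list holds it is not given in the sources used here. The deposited peak height was used as a signal, the number of overlapping tags, and it is not scaled for depth. Depth per sample was not given in the sources used here. The HNRNPC list held 10388 entries at 9107 positions, because a position under several gene IDs is repeated, and 24 members were listed under more than 1 ID. The deposited p-value is the authors' own and was used only as a filter.

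Peaks were assigned by their centre with GENCODE 44 and bedtools 2.31.1, CDS before 5′ UTR. The transcript described was the MANE Select one, then canonical, basic and by support level. Alu matches were found with blastn 2.17.0 (E-value of at most 1e-05) in the peak with 100 nt on either side, against a consensus of 284 nt built with mafft 7.526 from 300 genomic copies, and had to overlap the peak. Intervals were 95% Wilson intervals. Shares were compared by Fisher's exact tests (scipy 1.17.1) with Benjamini-Hochberg adjustment at 0.05 over 18 tests. Scripts were tested on simulated data. The members, lists and tests were chosen with earlier results of these data known. Genes were named by height (the 10 tallest per class and the 5 tallest in Alu-derived exons per class), by 3 or more members, by the gene groups and as PDLIM5. WDFY3, CSF3, EP400, UBAC1, GOLGA3, RBM39, EEF1A1 and IL4I1 were named after their values were seen. Alternatives were a stricter p, height, other transcripts, overlap in place of centre, peaks without GUGUCA, 1 peak per gene and other windows. Using protein-coding transcripts alone and leaving out positions under several IDs were chosen after seeing the data.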

Additional observations from a re-analysis of the deposited data

How the results depend on the processing

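No paired analysis was possible because HNRNPC and PABPC4 each have 1 list, called on tags of both samples together, which also kept single replicates from being left out. Of 156 recalculations 117 kept their direction and side of the threshold or stayed within the interval of the share, and none of the comparisons that passed reversed. The number of exon peaks was 190 at a p-value of at most 0.001, 152 at or above the median height, 183 with reference transcripts only and 169 without GUGUCA. The share with GUGUCA was 47.9%, 47.4% and 51.4% under the first 3 of these. With basic transcripts the shares with an antisense Alu, a U run and a place in the reference transcript were 10.1%, 16.9% and 66.7%. With reference transcripts they were 0% and 10.4% for Alu and U run. Without GUGUCA they were 22.5%, 28.4% and 40.8%, and PABPC4 overlap was 0%. With protein-coding transcripts only, a setting chosen after seeing the data, 58.8% lay in the reference transcript. The U-run share was 4.55% for 9 U and 8.04% inside the peak. The splice-site share was 26.0% with peaks assigned by most of their bases, 11.5% within 20 nt and 51.4% from the peak edge.

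Tests that crossed the threshold, as differences in percentage points, were as follows. At a p-value of at most 0.001 they were -6.47 (U run) and -2.62 (PABPC4) against non-coding exons and -6.51 (U run) against 3′ UTRs. At or above the median height they were -4.19 (Alu), -2.46 (U run) and -2.89 (PABPC4) against non-coding exons, -3.26 (Alu) and -3.88 (U run) against 3′ UTRs, and 15.5 for splice sites in coding against 5′ UTR peaks. Without GUGUCA they were -6.87 and -9.47 for the U run against non-coding exons and 3′ UTRs, and -8.61 (Alu) and -13.7 (U run) for coding against 5′ UTR peaks. With 1 peak per gene they were -7.28 (GUGUCA, newly passing) against introns, -3.73 (U run) and 5.81 (GUGUCA) against non-coding exons and -6.16 (U run) against 3′ UTRs. The cause was not tested, other than that fewer peaks entered each. With 286 peaks from 1 pooled list and no depth per sample, rare overlaps such as that with PABPC4 rest on single peaks.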
